A study of Mus musculus with 8 samples.

Results

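The enzymes and binding proteins that set, remove and read DNA methylation were followed in the adult mouse brain after prenatal ethanol. The 9 genes were Dnmt1, Dnmt3a, Dnmt3b, Tet1, Tet2, Tet3, Mbd2, Uhrf1 and Ctcf. A probe set counted for a gene when the annotation gave it that symbol and no other. They were 9 of 19938 genes with such a probe set. The 9 had 12 probe sets, among 23410 with a gene symbol, and where a gene had several, the probe set with the highest mean over the 8 arrays stood for it. Tet1 had 3 probe sets, Tet3 had 2, and every other gene had 1.

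Whole brains came from male C57BL/6J mice at postnatal day 70. In the early ethanol group the mothers had been injected with 2.5 g/kg ethanol in saline, 2 doses on each of gestational days 8 and 11, and in the early saline group with saline alone on the same days. The late ethanol and late saline groups had the same injections on gestational days 14 and 16. Each group had 2 Affymetrix Mouse Gene 1.0 ST arrays, with a pool of RNA from 3 mice on each, so a group stood for 6 mice but only 2 measurements, and p-values measure the spread between pools. All mice were male and of 1 strain, all mothers were injected, and the tissue was whole brain, in which fewer cells of a type and less RNA per cell cannot be told apart.

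DNA methylation in mammals is mostly the addition of a methyl group to cytosine where a guanine follows it (a CpG). Dnmt3a and Dnmt3b place new marks, Dnmt1 copies them after DNA replication, and the Tet enzymes oxidise the methyl group as a step towards its removal. Neurons are rich in the oxidised base, 5-hydroxymethylcytosine, and keep Dnmt3a activity after they stop dividing. Methyl-binding proteins read the mark, whereas binding of Ctcf, which organises chromatin loops and insulators, is blocked by methylation at some of its sites.

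For none of the 9 genes did the difference between ethanol and saline pass the test at either timing. After ethanol on gestational days 8 and 11, 8 of the 9 had a lower mean in ethanol than in saline, as did 59.8% of all probe sets. Tet1, Tet3 and Ctcf were farthest down, at about 0.9 of the saline level. The early Tet3 arrays overlapped, and its difference was 0.02 on the log2 scale without early ethanol replicate 2. After ethanol on gestational days 14 and 16, 4 of the 9 had a lower mean and 5 a higher one, and 52.7% of all probe sets had a lower mean. In limma, with Benjamini-Hochberg adjustment over all 23410 probe sets, 0 of 9 genes passed an adjusted p of 0.05 in the early contrast, the late contrast or the early effect minus the late effect, and 0 of 9 had an unadjusted p under 0.05. Across all probe sets 0% were called after adjustment in each of the 3 contrasts. An unadjusted p under 0.05 was found for 1.71% of them in the early contrast, 2.49% in the late contrast and 2.06% in the difference of the 2. At the thresholds of the study's methods (unadjusted p under 0.05 and at least 1.2-fold) these shares were 0.923%, 1.16% and 1.99%, and again 0 of 9 genes passed.

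Values are log2 signals as deposited. A level is compared only within a probe set and within a timing, since the arrays of the 2 timings had different medians (6.74 to 6.84 early and 7.21 to 7.30 late). Receptor genes of the nose, which the brain mostly does not express, set the background level: the 95th percentile of 1212 probe sets of olfactory or vomeronasal receptors, which averaged 6.48 in the early arrays and 7.46 in the late ones. A probe set whose timing mean did not exceed this level was called at background. Of the 9 genes, 7 lay above it at both timings, and Dnmt3b and Uhrf1 lay below it at both. The same 7 genes lay above the 99th percentile.

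**Figure D1:**
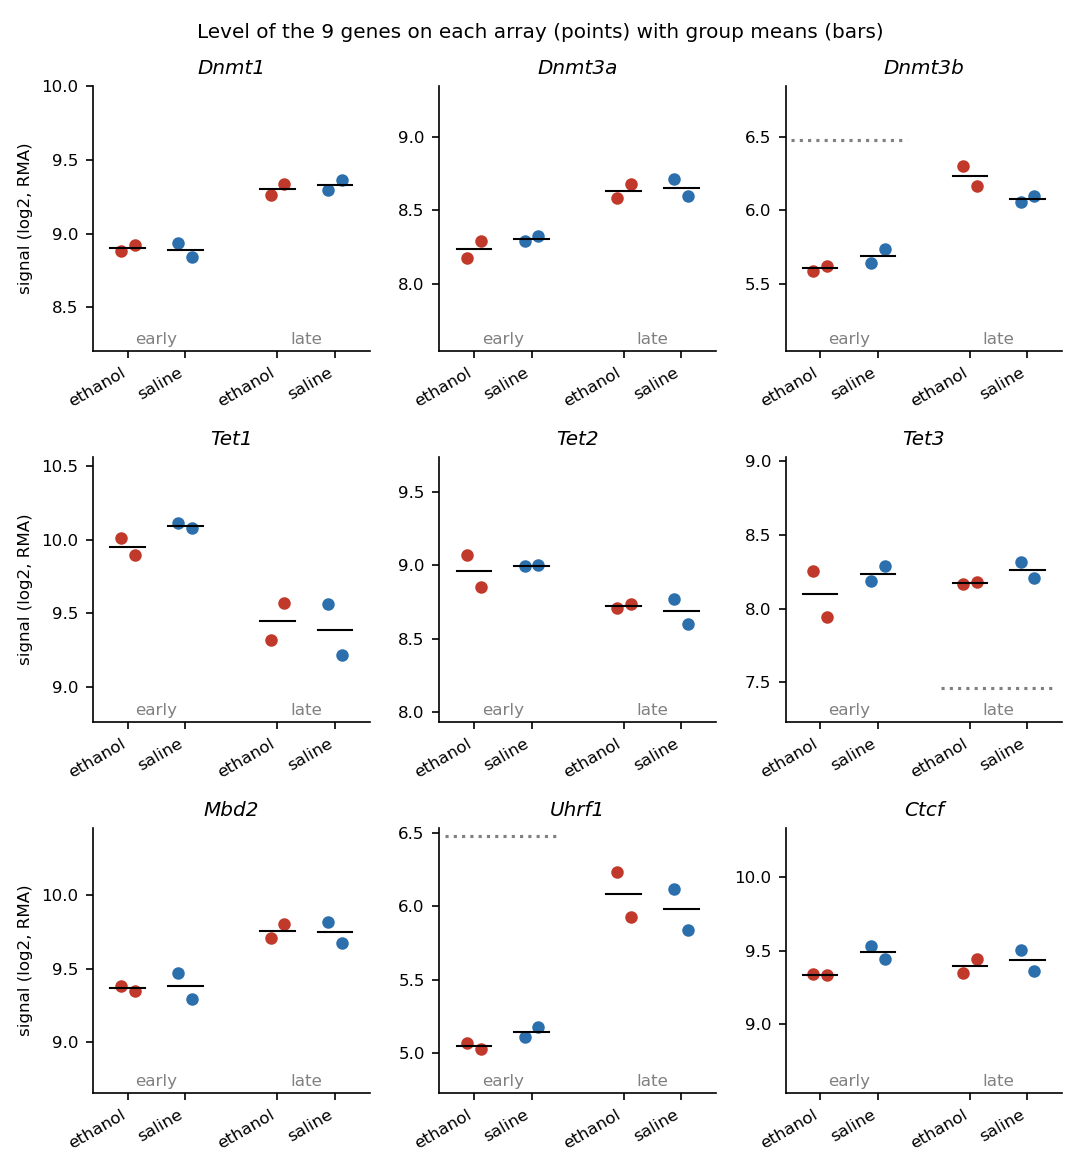
Log2 signal (vertical axis, 1.8 log2 units in every panel) of the 9 genes on each of the 8 arrays, with ethanol in red and saline in blue at each timing, black bars for the mean of 2 arrays and a dotted line for the background level where it falls within the panel. The early ethanol points lie wholly below the early saline points for Dnmt3b, Tet1, Uhrf1 and Ctcf, and Dnmt3b and Uhrf1 lie below the background level.

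Among the writers, Dnmt1, the maintenance methyltransferase (probe set 10591369), was at 8.88 and 8.92 in early ethanol against 8.93 and 8.84 in early saline. The arrays of the 2 groups overlapped, and the difference was 0.01 on the log2 scale (SE 0.08, adjusted p = 1 in limma). The 95% confidence interval ran between 0.890-fold and 1.15-fold. Late ethanol arrays read 9.26 and 9.34 against 9.30 and 9.36 in late saline, a log2 difference of -0.03 (SE 0.08), and the interval ran between 0.863-fold and 1.11-fold. Dnmt1 had the tightest replicates of the 9 genes, with a residual SD of 0.049 log2 units against a median of 0.0999 over all probe sets.

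Dnmt3a, the de novo methyltransferase of neurons (probe set 10394209), was at 8.18 and 8.29 in early ethanol against 8.29 and 8.32 in early saline. The upper ethanol array lay just above the lower saline array, so the groups overlapped, and the difference was -0.07 (SE 0.09). Its late values were 8.58 and 8.68 in ethanol against 8.71 and 8.60 in saline, with a difference of -0.02 (SE 0.09). The ethanol level was 0.951 of the saline level early (interval 0.830 to 1.09) and 0.983 late (interval 0.857 to 1.13).

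Dnmt3b, the other de novo enzyme, which is best known from the early embryo (probe set 10477325), stayed at background on all 8 arrays. It read 5.59 and 5.62 in early ethanol against 5.64 and 5.74 in early saline, and 6.30 and 6.16 in late ethanol against 6.06 and 6.10 in late saline. Both ethanol arrays were lower than both saline arrays early and higher late. The early difference was -0.08 (SE 0.08) and the late difference 0.16 (SE 0.08), with intervals of 0.825-fold to 1.08-fold and 0.974-fold to 1.27-fold. Of the 9 genes it had the lowest unadjusted p for the early effect minus the late effect (-0.24, SE 0.12, adjusted p = 1.00 in limma), on values that do not stand above those of receptor genes.

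Uhrf1, which brings Dnmt1 to newly copied DNA (probe set 10446074), was also at background. It read 5.07 and 5.03 in early ethanol against 5.11 and 5.18 in early saline, so that both ethanol arrays were lower (difference -0.09, SE 0.13). The late arrays were 6.23 and 5.93 in ethanol against 6.12 and 5.84 in saline and overlapped (difference 0.10, SE 0.13).

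Of the erasers, Tet1 and Tet3 had several probe sets each. Tet1 (probe set 10369702) was at 10.01 and 9.89 in early ethanol against 10.11 and 10.08 in early saline. Both ethanol arrays lay below both saline arrays, with a log2 difference of -0.15 (SE 0.13), or 0.904-fold with an interval between 0.735 and 1.11. In late ethanol it was at 9.32 and 9.57 against 9.56 and 9.21 in late saline. Here the 2 arrays of a group were farther apart than the groups, and the difference was 0.06 (SE 0.13). Tet1 had the widest replicate spread of the 9 genes, a residual SD of 0.157 log2 units.

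The other Tet1 probe sets had the same order in the early arrays. Probe set 10369690 was at 8.96 and 8.92 in early ethanol against 9.03 and 9.02 in early saline (difference -0.08, SE 0.09). Probe set 10369688 was at 7.533 and 7.599 in early ethanol against 7.78 and 7.84 in early saline (difference -0.24, SE 0.11, adjusted p = 1 in limma), with a 95% confidence interval of -0.48 to 0.00165. All 3 probe sets of Tet1 were thus lower in both early ethanol arrays than in either early saline array. They were hybridised to the same 4 pools, so they are not separate tests. In the late arrays probe set 10369690 differed by 0.08 (SE 0.09), and probe set 10369688 by -0.01 (SE 0.11) at background level. The early difference minus the late one was -0.20 (SE 0.19) for probe set 10369702, -0.16 (SE 0.13) for 10369690 and -0.23 (SE 0.15) for 10369688 (adjusted p = 1.00 for each in limma). With 1 array left out at a time, the early difference of 10369702 ranged over -0.20 to -0.09 (lowest without early ethanol replicate 1, highest without early ethanol replicate 2), and its early minus late difference over -0.38 to -0.03 (lowest without late saline replicate 1, highest without late saline replicate 2).

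Tet2 (probe set 10502284) was at 9.07 and 8.85 in early ethanol against 8.991 and 9.003 in early saline. The ethanol arrays lay on either side of the saline arrays, and the difference was -0.04 (SE 0.10). The late arrays read 8.71 and 8.74 in ethanol against 8.77 and 8.60 in saline, a difference of 0.03 (SE 0.10). The interval was 0.832-fold to 1.14-fold early, and -0.19 to 0.26 on the log2 scale late.

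Tet3 (probe set 10545692) was at 8.26 and 7.95 in early ethanol against 8.19 and 8.29 in early saline. Ethanol replicate 2 was the low array and replicate 1 lay between the saline arrays, with a difference of -0.14 (SE 0.11). The difference was 0.02 without ethanol replicate 2 and -0.29 without ethanol replicate 1. In late ethanol it was at 8.17 and 8.18 against 8.31 and 8.21 in late saline, so both ethanol arrays were lower by a narrow margin (difference -0.09, SE 0.11). Its second probe set, 10545682, overlapped early (7.84 and 7.66 in ethanol against 7.94 and 7.74 in saline). It was lower in both late ethanol arrays (7.06 and 7.35 against 7.36 and 7.47 in saline, difference -0.21, SE 0.12), where its mean did not lie above background.

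**Figure D2:**
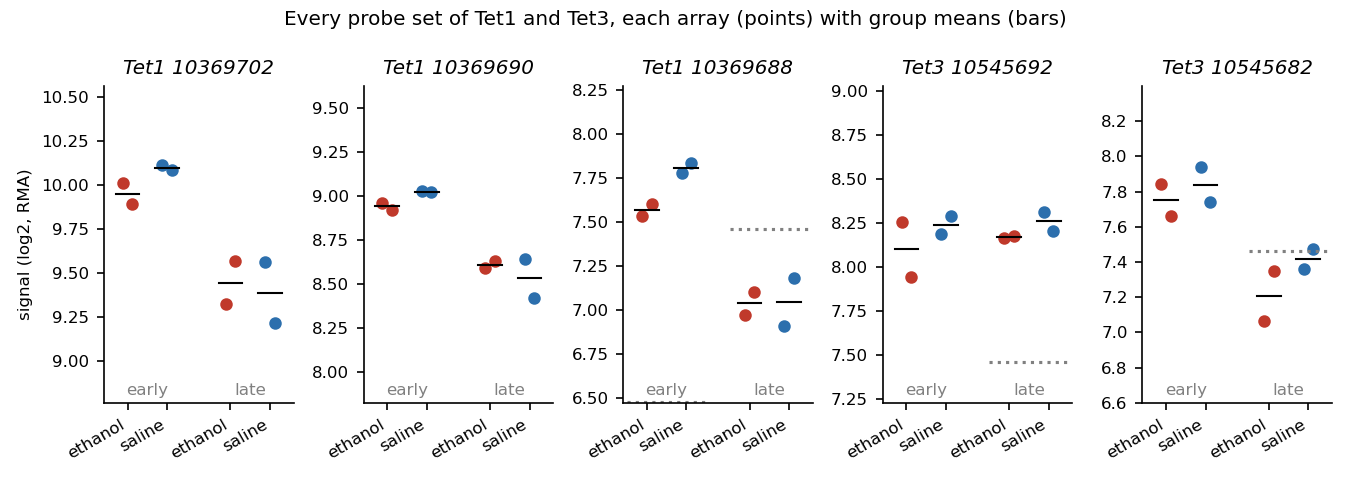
Log2 signal (vertical axis, 1.8 log2 units in every panel) of the 3 probe sets of Tet1 and the 2 of Tet3 on each array, with ethanol in red and saline in blue, black bars for group means and a dotted line for the background level. In the early arrays the ethanol points of all 3 Tet1 probe sets lie below the saline points, and in the late arrays the ethanol points of both Tet3 probe sets do.

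CpG sites are the substrate of these enzymes, and the promoters of the Tet genes themselves hold unequal numbers of them. The windows below run from 250 bases before to 50 bases after the annotated start (RefSeq, GRCm38.p6), and are given because the 3 genes encode enzymes of the same reaction and differ in this number. Capitals mark each CG. The window of Tet1 lies at chr10:62887275-62887574 on the minus strand, that of Tet2 at chr3:133544341-133544640 on the minus strand and that of Tet3 at chr6:83441629-83441928 on the minus strand.
Tet1: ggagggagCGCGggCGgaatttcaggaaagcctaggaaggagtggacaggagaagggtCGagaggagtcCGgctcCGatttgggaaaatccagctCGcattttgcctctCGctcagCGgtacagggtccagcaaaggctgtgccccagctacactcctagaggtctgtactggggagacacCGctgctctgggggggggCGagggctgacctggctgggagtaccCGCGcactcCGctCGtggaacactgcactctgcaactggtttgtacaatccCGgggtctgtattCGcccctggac
Tet2: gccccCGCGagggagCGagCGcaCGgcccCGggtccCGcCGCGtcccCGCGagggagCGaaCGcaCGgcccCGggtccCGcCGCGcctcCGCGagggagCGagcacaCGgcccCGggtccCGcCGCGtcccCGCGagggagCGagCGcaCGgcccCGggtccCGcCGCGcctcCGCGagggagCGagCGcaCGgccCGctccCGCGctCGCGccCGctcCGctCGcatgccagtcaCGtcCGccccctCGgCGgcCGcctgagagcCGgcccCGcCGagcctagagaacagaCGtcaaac
Tet3: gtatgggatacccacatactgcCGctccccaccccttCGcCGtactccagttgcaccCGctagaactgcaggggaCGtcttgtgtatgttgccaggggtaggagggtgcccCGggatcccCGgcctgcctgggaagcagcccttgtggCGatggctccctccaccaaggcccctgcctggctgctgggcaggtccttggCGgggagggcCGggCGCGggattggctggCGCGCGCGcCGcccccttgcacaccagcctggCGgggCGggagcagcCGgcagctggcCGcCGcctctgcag

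The Tet2 window held 57 CGs, more than 99.8% of the 32851 promoter windows in the table, the Tet3 window 22 and the Tet1 window 17. At least 1 CG was found in 94.6% of all windows, with a median of 7. The table had 13 windows for 8 of the 9 genes, none being matched for Mbd2. They held between 2 and 57 CGs, and 12 of the 13 held more than the median of 7. The single windows of Ctcf and Dnmt3b held 47 and 30, and the exception was 1 of the 3 windows of Dnmt1, with 2 CGs against 12 and 33 in the other windows. The letters CCCTC, from which Ctcf takes its name, were searched on both strands and occurred in 12 of the 13 windows and in 66% of all windows. These counts describe the sequence, and no methylation was measured in the samples analysed here.

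Among the readers, Mbd2, a methyl-CpG binding protein of the NuRD repressor complex (probe set 10456566), was at 9.38 and 9.35 in early ethanol against 9.47 and 9.29 in early saline. In late ethanol it was at 9.71 and 9.80 against 9.82 and 9.68 in late saline. At both timings the 2 ethanol arrays lay between the 2 saline arrays, with differences of -0.01 and 0.01 (SE 0.09 each). The intervals ran between 0.853-fold and 1.15-fold early and between 0.866-fold and 1.17-fold late.

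Ctcf (probe set 10574812) was at 9.34 on both early ethanol arrays against 9.53 and 9.45 in early saline. Both ethanol arrays were lower, and the difference was -0.15 (SE 0.09, adjusted p = 1 in limma), the lowest unadjusted p of the 9 genes in the early contrast. The interval ran between 0.785-fold and 1.03-fold. In late ethanol it was at 9.35 and 9.44 against 9.50 and 9.36 in late saline, which overlapped (difference -0.04, SE 0.09). The early difference minus the late one was -0.11 (SE 0.12).

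**Figure D3:**
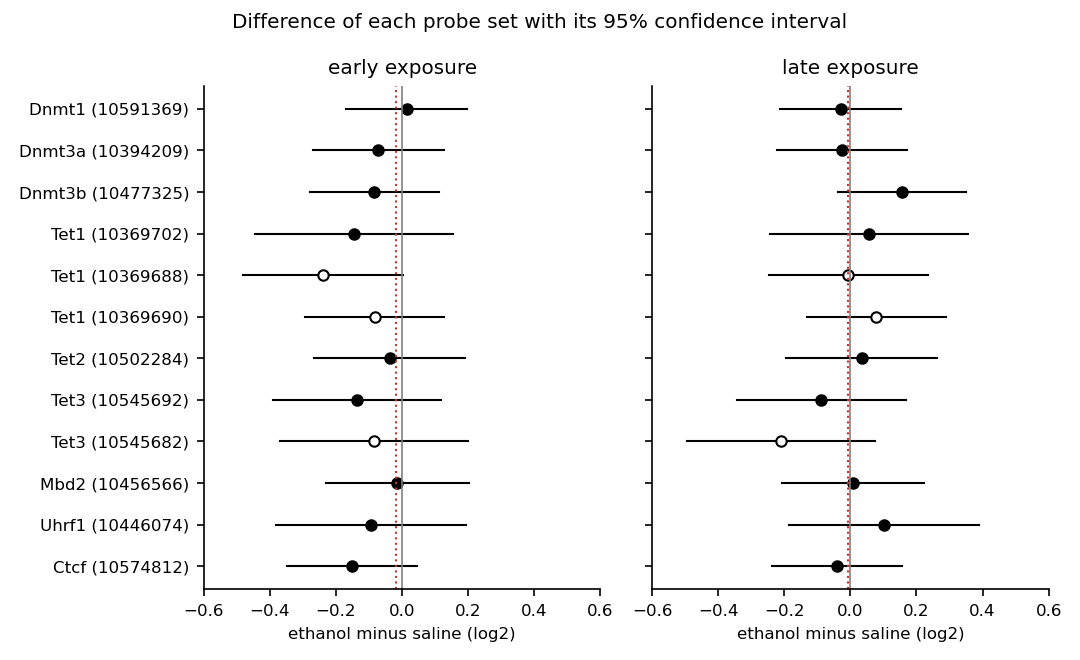
Log2 difference, ethanol minus saline (horizontal axis), of all 12 probe sets at the early (left) and late (right) timing, with 95% confidence intervals from limma, filled points for the probe set that stands for a gene, open points for the other probe sets, and a red dotted line for the median of all probe sets. Every interval includes 0, and in the early panel 11 of 12 points lie left of 0, as do 59.8% of all probe sets. The 3 points of Tet1 and the 2 of Tet3 come from the same pools and are not separate tests.

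Set against all probe sets, the early arrays leaned lower. The median difference of the 9 genes was -0.08 early and 0.01 late, against -0.02 and -0.01 over all probe sets. A mean lower in ethanol was found for 8 of 9 genes early, against 59.8% of all probe sets, and for 4 of 9 late, against 52.7%. Both ethanol arrays lay below both saline arrays for 4 of 9 genes early (Dnmt3b, Tet1, Uhrf1 and Ctcf) against 18.9% of all probe sets, and above them for 0 of 9 against 7.5%. Since Dnmt3b and Uhrf1 were at background, the early count among genes above it was 2 of 7 (Tet1 and Ctcf), against 16.8% of the 11996 probe sets above background at both timings. In the late arrays both ethanol arrays lay below for 1 of 9 (Tet3) against 15.7%, and above for 1 of 9 (Dnmt3b) against 12.7%.

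The early order of those 4 genes was the same when the arrays were centred on their medians, quantile normalized or scaled by cyclic loess. The number of genes with a lower early mean was then 7, 7 and 6 of 9, and cyclic loess put Dnmt1 higher in both ethanol arrays. The share of all probe sets with a lower early mean was not counted under these scalings. Their median early difference was then 0.003, -0.003 and 0.004, and that of the 9 genes -0.06, -0.08 and -0.06. The shares of all probe sets lower in both early ethanol arrays were then 12.7%, 16.1% and 14.2%. The late order depended on the scaling. Tet3 was lower in both late ethanol arrays as deposited and after cyclic loess only. Tet2 and Mbd2 were higher in both after quantile normalization and cyclic loess, and Dnmt3a after cyclic loess. With Dnmt3b, 1, 3 and 4 of 9 genes were thus higher in both late ethanol arrays under the 3 scalings, against 18.5%, 15.8% and 15.3% of all probe sets.

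The late arrays also shared a pattern across genes that did not follow the groups. Late ethanol replicate 2 was above late ethanol replicate 1, and late saline replicate 1 above late saline replicate 2, for Dnmt3a, Tet1, Tet2, Tet3, Mbd2 and Ctcf. For Tet1 these gaps were 0.25 and 0.35 log2 units, against a difference between the group means of 0.06. The background level moved the other way, at 7.70 and 7.28 in late ethanol replicates 1 and 2 against 7.36 and 7.50 in late saline replicates 1 and 2, so it was lower on the 2 arrays where these 6 genes read higher. Its part in the late differences was not tested. Dnmt1 had the replicate order of the 6 genes in late ethanol only, Uhrf1 in late saline only, and Dnmt3b in neither group. The share of all probe sets with this order was not counted. Over all probe sets, deviations of same-numbered late arrays correlated at -0.464.

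Other genes of the pathway were taken from a list of 64, and 58 of these were measured. In limma 0 of 58 passed after adjustment in any contrast. At the methods' thresholds 1 of 58 passed early (Mbd4, lower) and 1 of 58 late (Bhmt, higher), against 0.923% and 1.16% of all probe sets. The median difference of the 58 was -0.04 early and -0.02 late.

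Mbd4, a methyl-CpG reader and DNA glycosylase that repairs deaminated methylcytosine (probe set 10547088), was at 6.41 and 6.35 in early ethanol against 6.65 and 6.67 in early saline. Both ethanol arrays were lower, and lay below the background level while the saline arrays lay above it (difference -0.28, SE 0.11, adjusted p = 1 in limma). The late arrays read 7.21 and 7.39 in ethanol against 7.27 and 7.01 in saline, with a mean below background (difference 0.16, SE 0.11). It was the 1 gene of the list past the methods' thresholds for the early effect minus the late effect (-0.44, SE 0.15, adjusted p = 1.00 in limma), against 1.99% of all probe sets. The other 7 measured readers had 0 genes past these thresholds.

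Bhmt, which makes methionine from betaine in the liver (probe set 10411142), was at 6.46 and 6.34 in late ethanol against 6.15 and 5.91 in late saline. The difference was 0.37 (SE 0.11, adjusted p = 1 in limma), with all 4 arrays below background. The other 2 Bhmt probe sets differed by 0.08 and 0.04 late. Among the 7 measured genes of methyl donor supply, Mat2b, the regulatory subunit of methionine adenosyltransferase, had the lowest unadjusted p early, at 9.52 and 9.28 in ethanol against 9.77 and 9.52 in saline (difference -0.24, SE 0.13). Those arrays met at their edge and did not separate.

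In base excision and other demethylation, Gadd45a, a stress-induced protein linked to active demethylation, was at 6.83 and 6.86 in early ethanol against 7.13 and 6.95 in early saline (difference -0.19, SE 0.09). Lig3, the ligase that seals the repaired strand, was lower in both ethanol arrays at both timings, with differences of -0.14 and -0.12 (SE 0.08 each). Of the 9 measured genes of this group, 7 had a lower mean early and 3 late, against 59.8% and 52.7% of all probe sets. Both ethanol arrays were lower for 3 of 9 early and 1 of 9 late, against 18.9% and 15.7% of all probe sets. Of the 9, 6 lay above background at both timings.

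All 10 genes of the NuRD complex that Mbd2 joins were measured and above background. Both ethanol arrays were lower for 1 of 10 early (Chd4) and for 6 of 10 late (Chd4, Hdac1, Mta1, Mta2, Mta3 and Gatad2b), where the median was -0.10. After median centring, quantile normalization and cyclic loess the late count was 5, 3 and 3 of 10, with medians of -0.07, -0.03 and -0.03. The corresponding shares of all probe sets were 18.9% early and 15.7% late as deposited, and 10.3%, 13% and 14.7% late after those scalings. Of the probe sets above background at both timings, 24.8% were lower in both late ethanol arrays as deposited. The lowest unadjusted p belonged to Mta1 in the late arrays, at 9.39 and 9.59 in ethanol against 9.66 and 9.64 in saline (difference -0.15, SE 0.09). Beside this, the 11996 probe sets above background at both timings had a late median of -0.05, and 72.4% of them had a lower late mean in ethanol.

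Cohesin acts with Ctcf at chromatin loops, and 11 genes of cohesin, its regulators and other Ctcf-related factors were measured. Both ethanol arrays were lower for 5 of the 11 early and for 1 late (Pds5b). The 5 were Smc3, Rad21 and Wapl, of cohesin and its regulators, and the other factors Yy1 and Ctcfl, with Ctcfl at background. These counts stand beside 18.9% of all probe sets early and 15.7% late. The early count was 3, 4 and 4 of 11 after median centring, quantile normalization and cyclic loess, beside 12.7%, 16.1% and 14.2% of all probe sets. Wapl, the factor that releases cohesin, was at 8.54 and 8.59 in early ethanol against 8.78 and 8.71 in early saline (difference -0.18, SE 0.11). Smc3, a core cohesin subunit, was at 9.64 and 9.70 against 9.85 on both saline arrays (difference -0.18, SE 0.11). The late difference with the lowest unadjusted p was that of Nipbl, the cohesin loader (-0.14, SE 0.11).

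The 8 partners of the methyltransferases had a median of 0.00 early and 0.02 late, with Usp7, a deubiquitinase that binds Dnmt1, at -0.10 early and the histone methyltransferase Ehmt1 at -0.13 late, with its late mean at background. The 4 dehydrogenases that supply or use the Tet cofactor 2-oxoglutarate lay between -0.04 and 0.09 early and between -0.05 and -0.01 late, the upper early and the lower late value being those of Ogdh. Trdmt1, the relative of the Dnmt enzymes that methylates tRNA, differed by -0.10 early and -0.12 late (SE 0.11 each), and was lower in both late ethanol arrays.

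**Figure D4:**
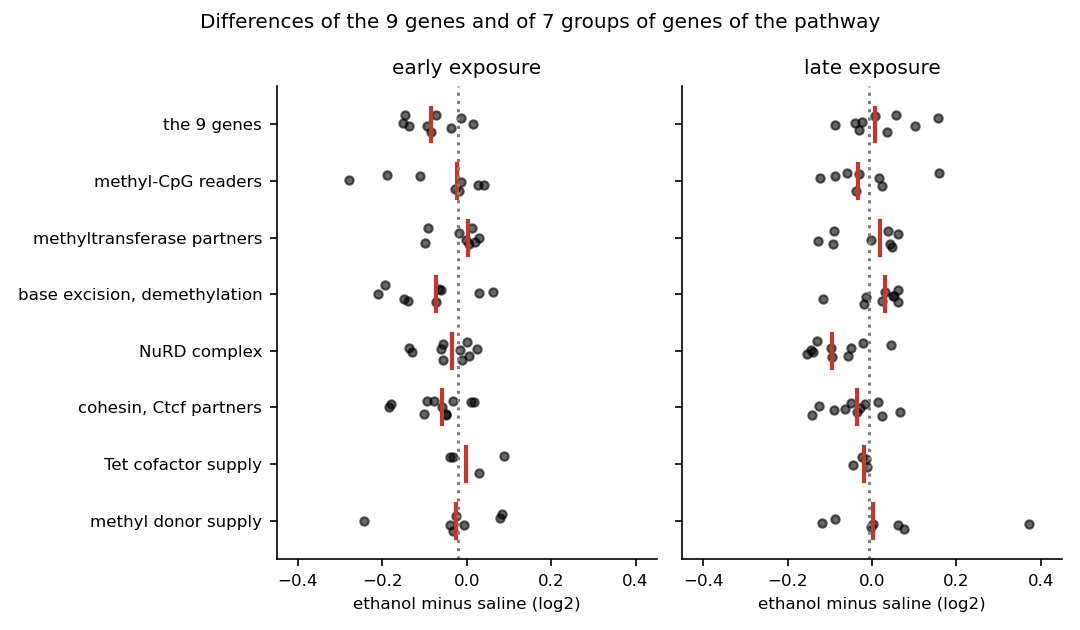
Log2 difference, ethanol minus saline (horizontal axis), of the 9 genes and of 7 groups of pathway genes at the early (left) and late (right) timing, with 1 point per gene, a red bar for the median of the group and a grey dotted line for the median of all probe sets. The early median of the 9 genes (-0.08) lies left of the dotted line, the late median of the NuRD complex is at -0.10, and the isolated points are Mbd4 at -0.28 early and Bhmt at 0.37 late.

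The cell makeup of the samples was checked with markers. All measured neuron (7), astrocyte (5) and oligodendrocyte (4) markers and 3 of 4 microglia markers lay above background at both timings. Median differences early and late were 0.04 and -0.03 for neurons, -0.0006 and -0.07 for astrocytes, and -0.06 and 0.03 for microglia. Gad1 and Gad2 were lower in both early ethanol arrays (-0.10 and -0.16), but 4 of 7 neuron markers had a higher early mean. So was Aif1, at background. In the late arrays Rbfox3 and Gfap were lower in both, and Cx3cr1 higher. All 4 oligodendrocyte markers had a higher mean in early ethanol (median difference 0.15, with Mbp and Mobp higher in both ethanol arrays) and a lower mean in late ethanol (median -0.12, with Mbp, Mog and Mobp lower in both). Of all probe sets, 59.8% had a lower mean early and 52.7% late. Both ethanol arrays were higher for 7.5% of them early, and lower for 15.7% late. Among the 11996 probe sets above background at both timings, as these 4 markers were, 800 were higher in both early ethanol arrays. In the late arrays 24.8% of these were lower in both ethanol arrays, and 72.4% had a lower mean. Mbp and Mobp passed the methods' thresholds for the early effect minus the late one, at 0.34 and 0.35 (adjusted p = 1.00 for each in limma), as did 1.99% of all probe sets. Of 9 measured markers of dividing cells 1, Pcna, lay above background, and it was lower in early ethanol (10.47 and 10.27 against 10.89 and 10.80 in saline, difference -0.48, SE 0.10, adjusted p = 1 in limma). All 8 markers of neuroblasts and the olfactory bulb were lower in both early ethanol arrays, against 18.9% of all probe sets. Sp8 was at background at both timings and Tbx21 in the late arrays. The mean level of the 8 was 7.25 and 7.48 in early ethanol against 7.74 and 7.86 in early saline, with a median difference of -0.43 early and -0.01 late. In the late arrays 3 of the 8 were lower in both ethanol arrays, against 15.7% of all probe sets, and 3 of the 8 had a higher mean. The lower ones were Cdhr1, Th and Eomes, with late differences of -0.23, -0.22 and -0.365, and their count was 3 under each scaling. Eomes passed the methods' thresholds late, as did 1.16% of all probe sets. The 8 markers of olfactory epithelium and nasal glands had a mean level of 8.25 and 7.26 in early ethanol against 6.93 and 6.996 in early saline, but its members went opposite ways. The gland genes Bpifb9b, Bpifb9a, Obp2a and Obp1a were higher in both early ethanol arrays, with differences of 3.78, 2.49, 1.59 and 0.79. Obp2a and Obp1a were at background by their early means. They read 8.32 and 7.34 in early ethanol replicate 1 but 5.63 and 6.06 in replicate 2, against at most 5.49 and 5.996 in early saline. The sensory neuron genes Stoml3 and Omp were lower in both early ethanol arrays, with differences of -1.59 and -0.66 (adjusted p = 1 in limma for each of these and of the gland genes). Of the remaining markers of this list, Gng13 was lower in both ethanol arrays at both timings (-0.07 early, -0.32 late). Cnga2 was at background and overlapped at both timings. All 4 endothelial markers had lower means in ethanol at both timings, with Pecam1 at background late. Of the probe sets above background at both timings, 59.1% had a lower mean early and 72.4% late. The part of the marker differences in the values of the 9 genes was not tested.

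For each of the 7 genes above background, the probe sets most like it were sought by Pearson's r over the 8 arrays, each value being taken relative to the mean of its timing, among 10986 others (10985 for Tet1) of 1 symbol and above background. These values are a description over 8 points that share arrays, with the highest picked from many. Dnmt1 was followed most closely by Zranb2 and Ube2h (r = 0.978 each). Dnmt3a was followed by C77080 (r = 0.994) and by Suz12, a subunit of the Polycomb complex PRC2 (r = 0.985). For Tet1 the nearest was Kat14, a histone acetyltransferase subunit (r = 0.992), for Tet2 Ranbp17 (r = 0.979), and for Tet3 Tob1 (r = 0.968). Mbd2 was nearest to Tbc1d10b and Ndufa5 (r = 0.9904 each), and Ctcf to D6Wsu163e (r = 0.992) and Lypla1 (r = 0.989). None of the nearest genes was another of the 9.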

How the data were processed

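RNA from the 8 pools was hybridised to 1 array each. The log2 values were used as the authors deposited them, after GC-adjusted RMA summary and quantile normalization in Partek (6.6 in the submitters' processing notes, an earlier release in the study's methods). The methods describe the early arrays, and the late ones are taken to be processed alike. The genome build is not given in the sources used here. Of 35556 probe sets, the 23410 with a gene symbol were tested.

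A model with a mean for each of 4 groups was fitted in limma 3.58.1 (R 4.3.3) with moderated variances, without a block, with Benjamini-Hochberg adjustment of p over all 23410. Intervals are 95% limits from the same fit. The test was checked on simulated data, and other scalings, filters, tests and left-out arrays were tried. Any 2 arrays of a timing correlated at 0.993 or more. The 9 genes, the pathway and marker lists and the alternatives were chosen with earlier results of these data known. Pathway genes were named if past the methods' thresholds or if they had the lowest unadjusted p of their group at a timing, and other names were chosen after their values were seen. Of the listed pathway genes, 6 were not analysed here. Promoter sequences were from RefSeq (GRCm38.p6). Figures were made in Python 3.11.15 with matplotlib 3.10.9.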

Additional observations from a re-analysis of the deposited data

How the results depend on the processing

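No alternative gave any of the 9 genes an adjusted p under 0.05, the lowest being 0.9995 early, 0.5662 late and 0.8411 for the early effect minus the late effect. The sign was kept in 180 of 190 repeats of the 9 genes' differences early, 170 of 190 late and 157 of 172 for the difference of both. Filters, blocks and other tests leave a difference of group means unchanged. An array left out of the other timing likewise cannot move an early or late difference. Those repeats could not reverse a sign, so these counts are no measure of robustness. Apart from left-out arrays, the reversals were as follows. Median centring gave 0.008243 for Mbd2 early. Quantile normalization gave 0.01039 for Mbd2 early, 0.03686 for Dnmt1, 0.03209 for Dnmt3a and 0.03053 for Ctcf late, and -7.063e-05 for Dnmt1 in early minus late. Cyclic loess gave 0.006253 for Tet2 and 0.02277 for Mbd2 early, and 0.02445 for Dnmt1, 0.01906 for Dnmt3a and 0.01703 for Ctcf late. Late Tet1 was -0.005795 by probe set 10369688, and Tet3 in early minus late was 0.1242 by probe set 10545682 and 0.03778 by the mean of the 2 probe sets.

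Probe sets past an unadjusted p of 0.05 and 1.2-fold numbered 216 early, 272 late and 465 for early minus late, and 169 late and 213 for early minus late without the lower 50% of probe sets by mean, 669, 674 and 854 with every probe set, and 60 early and 58 late with the methods' t-test (0 after Benjamini-Hochberg at both timings). Of the early calls 65 were higher and 151 lower, against 86 and 104 after median centring. Of the late calls 103 were higher and 169 lower, against 170 and 101 after median centring and 104 and 106 after quantile normalization. The cause of these shifts was not tested. Replicate numbers only name the pools, and deviations of same-numbered arrays correlated at 0.466 early and -0.464 late. A replicate block gave 229, 354 and 582 such probe sets, and a block with the late numbers crossed, added after seeing the data, 564, 519 and 1099, with 0 of the 9 genes past the thresholds in either.

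With each array left out in turn, the remaining array of that group was given the spread of the other groups. Adjusted calls ranged over 0 to 13 early and 0 to 5 for early minus late (both highest without early ethanol replicate 2). Probe sets past both thresholds ranged over 210 to 781 early, 242 to 1750 late and 233 to 1284 for early minus late. The early count was 408 and 564 without early ethanol replicates 1 and 2, and 426 and 781 without early saline replicates 1 and 2. The late count was 1750 without late ethanol replicate 2 and 875 without late saline replicate 1. The count for early minus late was 790 without early saline replicate 1, 1284 without late ethanol replicate 2, 1082 without late saline replicate 1 and 233 without late saline replicate 2. Of the 9 genes, 0 to 1 passed early (Tet3 at -0.2924, without early ethanol replicate 1) and 0 to 1 for early minus late (Dnmt3b at -0.3091, without late ethanol replicate 2). Early ranges that spanned 0 were -0.03097 to 0.05968 for Dnmt1, -0.1467 to 0.07218 for Tet2, -0.2924 to 0.02004 for Tet3 and -0.1028 to 0.07475 for Mbd2. Late ones were -0.06723 to 0.00799 for Dnmt1, -0.08141 to 0.03176 for Dnmt3a, -0.119 to 0.2304 for Tet1, -0.05112 to 0.1208 for Tet2, -0.06354 to 0.07924 for Mbd2, -0.05085 to 0.2538 for Uhrf1 and -0.1085 to 0.02987 for Ctcf. For early minus late they were -0.001345 to 0.0893 for Dnmt1, -0.1045 to 0.01031 for Dnmt3a, -0.1815 to 0.03732 for Tet2, -0.2049 to 0.1075 for Tet3 and -0.1107 to 0.0669 for Mbd2. The early sign was kept whichever early array was left out for Dnmt3a (-0.1294 to -0.01451), Dnmt3b (-0.134 to -0.03314), Tet1, Uhrf1 (-0.1259 to -0.06211) and Ctcf (-0.1948 to -0.108). The late sign was kept whichever late array was left out for Dnmt3b (0.08592 to 0.2255) and Tet3 (-0.1409 to -0.03412). Leaving out an array of the other timing cannot move an early or late difference. For early minus late the sign was kept over all 8 left-out arrays for Dnmt3b (-0.3091 to -0.1695), Tet1 (-0.3756 to -0.02625), Uhrf1 (-0.3478 to -0.04315) and Ctcf (-0.1813 to -0.04287). Dnmt3b and Uhrf1, at background, have no measured level behind their differences.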
